A study of Mus musculus with 6 samples.

Results

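The regions described here were the distal regions of accessible chromatin that were called in vehicle-treated NMuMG cells and after TGFβ alike, and whose width was 0.8 to under 2 times the vehicle width after 12 h. Their members were selected on measured values. A region had to hold peaks of all 3 peak lists, to lie over 1000 bp from the 5′ end of every annotated transcript, and to have a ratio of 12 h bp to vehicle bp inside that range. Bp were counted after the intervals of a list were joined across gaps under 1000 bp, so they include such gaps. This left 4567 regions of the 39435 union regions, which were formed by joining the intervals of the 3 lists. Of the union regions, 27986 were distal, 15154 held peaks of all 3 lists and 6373 were both, so the members were 71.7% of the shared distal regions. The remaining shared distal regions comprised 1416 with a ratio of 2 or more, called widened below, and 390 with a ratio under 0.8, called narrowed. A further 9706 distal regions were called at 2 h and at 12 h but not in vehicle, and are those meant below by regions called only after TGFβ.

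The data were ATAC-seq peaks, which mark DNA open to insertion by Tn5 transposase. The cells were NMuMG, a mouse line of epithelial cells established from normal mammary gland. All cells were first kept without serum for 6 h. They then received the vehicle (the diluent of TGFβ, with bovine serum albumin) for 2 h or TGFβ1 (5 ng/ml) for either 2 h or 12 h, with 2 biological replicates per condition and 6 samples in all. No vehicle collected at 12 h was analysed here, so TGFβ at 12 h and the longer time without serum cannot be told apart. Both replicates of a condition were combined by the authors in 1 list of reproducible peaks, and each condition therefore gave 1 value per region, without a replicate spread. Differences between conditions were described and not tested, and intervals given with shares cover counting error only, since regions are not replicates of a condition.

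Accessible regions far from start sites include enhancers, to which sequence-specific transcription factors bind, and insulator sites bound by CTCF, a zinc-finger protein that helps to form chromatin loops. AP-1, a family of dimers of Jun and Fos proteins, occupies many enhancers of epithelial cells and often acts together with SMAD3 and SMAD4, the transcription factors that carry the TGFβ signal from the receptors to the nucleus. Forkhead, RUNX, TEAD and AP-2 proteins are further factors that bind epithelial enhancers.

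The label of the cells was checked on the 5′ ends of marker genes. Among 8 epithelial markers, those of Krt8, Krt18 and Krt19, which encode keratins of simple epithelia, lay in a region of every list. That of Cdh1, which encodes E-cadherin, lay in a region of both TGFβ lists only, and those of Epcam, Krt7, Cldn7 and Esrp1 lay in none. No 5′ end of the 4 fibroblast, 4 leukocyte or 4 endothelial markers lay in a region of any list. The lists held 18994 distinct intervals in vehicle, 36867 at 2 h and 36874 at 12 h. Read depth was not used here, and its part in the number and width of the called intervals was not tested.

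Sequences of 8 members are shown because they carry the motifs compared below. They were the members with the highest vehicle score whose match lay nearest to the centre of the region. Each is 150 bases of NCBIM37 (mm9), read 5′ to 3′ on the strand of the match, with that match in capitals and any further match in lower case. CTCF members are given first. The member named after Chd2, which encodes a chromatin remodeller, lay 76133 bp from that gene's start site, the nearest coding one. It was read from chr7:80763332-80763481 on the minus strand in GC-rich DNA and covered 1236 bp in vehicle, 1294 bp at 2 h and, at 12 h, 1301 bp. The other lay at chr15:102212105-102212254 on the plus strand, 14773 bp from the nearest coding start site, that of Sp7, and covered 211, 215 and 225 bp in the same order. Both were intergenic.
CTCF member near Chd2: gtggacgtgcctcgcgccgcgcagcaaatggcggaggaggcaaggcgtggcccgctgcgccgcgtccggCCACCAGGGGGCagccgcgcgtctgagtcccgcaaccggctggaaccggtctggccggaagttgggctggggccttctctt
CTCF member near Sp7: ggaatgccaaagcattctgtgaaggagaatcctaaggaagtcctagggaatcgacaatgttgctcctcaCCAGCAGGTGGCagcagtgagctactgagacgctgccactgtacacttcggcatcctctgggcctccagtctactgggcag

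Both AP-1 members lay between genes on chromosome 1, on the minus strand. The member near Cps1, which encodes a urea cycle enzyme, was read from chr1:67160026-67160175 and covered 275 bp in vehicle, 297 bp at 2 h and, at 12 h, 254 bp. The member near Dennd1b was read from chr1:140825464-140825613 and covered 869, 885 and 908 bp. In both, the AP-1 match lay under 1 bp from the centre of the region.
AP-1 member near Cps1: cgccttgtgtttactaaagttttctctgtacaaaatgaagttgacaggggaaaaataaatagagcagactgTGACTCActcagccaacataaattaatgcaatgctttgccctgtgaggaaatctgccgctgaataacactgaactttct
AP-1 member near Dennd1b: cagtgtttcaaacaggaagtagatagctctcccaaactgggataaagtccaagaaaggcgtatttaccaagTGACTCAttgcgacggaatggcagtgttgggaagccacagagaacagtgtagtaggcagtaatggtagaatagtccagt

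The SMAD palindrome was shown by a member in an intron of Egfr, the gene of the EGF receptor, at chr11:16704205-16704354 on the plus strand, with 472 bp in vehicle, 527 bp at 2 h and, at 12 h, 476 bp. The TEAD member overlapped an exon of Nudcd1 at chr15:44244239-44244388 on the minus strand, with 712, 563 and 930 bp. The RUNX member was intergenic at chr13:18067739-18067888 on the minus strand, with 689, 855 and 816 bp. The grainyhead member overlapped exon sequence of the nonagouti gene, with Ahcy as the nearest coding start site, at chr2:154876614-154876763 on the plus strand, with 720, 549 and 1046 bp. The TEAD and grainyhead members were thus narrower at 2 h and wider at 12 h than in vehicle.
SMAD member in Egfr: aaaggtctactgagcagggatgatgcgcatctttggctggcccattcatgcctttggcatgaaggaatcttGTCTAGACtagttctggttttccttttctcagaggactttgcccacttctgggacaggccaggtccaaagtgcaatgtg
TEAD member in Nudcd1: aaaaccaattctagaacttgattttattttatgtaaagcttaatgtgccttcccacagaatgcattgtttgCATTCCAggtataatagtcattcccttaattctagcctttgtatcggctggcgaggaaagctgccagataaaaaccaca
RUNX member on chromosome 13: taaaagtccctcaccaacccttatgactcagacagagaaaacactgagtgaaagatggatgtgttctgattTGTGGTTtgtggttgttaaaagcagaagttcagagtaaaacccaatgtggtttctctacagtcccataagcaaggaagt
Grainyhead member near Ahcy: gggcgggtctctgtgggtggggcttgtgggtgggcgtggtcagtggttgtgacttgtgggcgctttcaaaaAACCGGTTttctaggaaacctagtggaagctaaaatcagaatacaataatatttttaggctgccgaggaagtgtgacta

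The members covered a median of 483 bp in vehicle (quartiles 357 and 657.5 bp), 645 at 2 h (477.5 and 842 bp) and 626 at 12 h (461 and 822 bp). Their total was 2.50 Mb in vehicle, and it was 3.23 Mb at 2 h and 3.11 Mb at 12 h. The 12 h values follow from the rule and are a description. Within its range the members were mostly wider than in vehicle, as 3842 of 4567 (84.1%) covered more bp at 12 h. The share of all shared distal regions was close to this, at 82.5%. The median ratio of 12 h to vehicle bp in members was 1.23. Steady width thus names the range of the rule and not equal widths. Only 10 members had the same start and end in all 3 lists, and 64 (1.40%) had both the 2 h and the 12 h ratio within 0.02 of 1. Most members held 1 interval and so no gap, with 93.6% in vehicle, 91.3% at 2 h and 94.2% at 12 h. Of the widened regions, 65.1% held 1 interval at 12 h.

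The 2 h widths were not used beyond the presence of a peak. They share the vehicle list with the 12 h ratio, so both ratios are given side by side. The median ratio of 2 h to vehicle bp was 1.24 (95% interval 1.22 to 1.25), with quartiles of 1.06 and 1.54 and extremes of 0.352 and 7.75. At 2 h, 4102 of the 4567 members (89.8%) were also within 0.8 to under 2 times the vehicle width, where 75.8% of all shared distal regions were, 351 had a ratio of 2 or more and 114 a ratio under 0.8. At that time 3917 members (85.8%) covered more bp than in vehicle, beside 86.5% of all shared distal regions. The share of members that exceeded vehicle at 2 h was therefore close to the background. The median ratio of 12 h to 2 h bp was 0.994 (95% interval 0.989 to 0.997). Members with the most bp at 2 h made up 49.0%, those with the most at 12 h 43.6% and those with the most in vehicle 6.39%. The same shares of all shared distal regions were 45.3%, 46.3% and 7.55%. Since the rule left out regions with a high 12 h ratio, the order of 2 h and 12 h in members is partly built in.

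**Figure D1:**
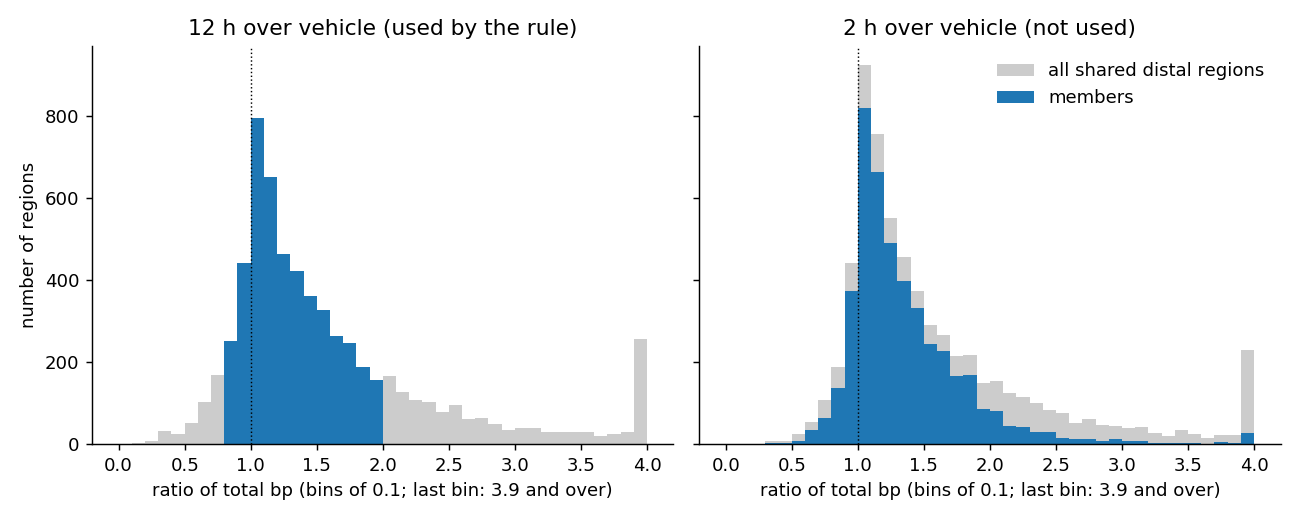
Number of shared distal regions (grey, 6373) and members (blue, 4567) by the ratio of covered bp to vehicle bp at 12 h (left) and 2 h (right). Bins are 0.1 wide, with all ratios of 3.9 and over in the last bin and a dotted line at 1. Covered bp include the gaps between merged intervals. The rule cut the left distribution at 0.8 and 2, and on the right 351 members lay at 2 or more and 114 under 0.8.

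Most members reached past both vehicle edges. Of the members, 4533 held 1 region of each list. At 2 h the region reached past both vehicle edges in 63.6% of these, past 1 edge in 32.0% and past none in 4.46%. At 12 h the same shares were 59.1%, 35.4% and 5.49%. Among all shared distal regions with 1 region of each list, they were 66.1%, 29.6% and 4.30% at 2 h. The values there at 12 h were 62.0%, 31.3% and 6.69%. The reach past both edges was therefore near the background and not particular to the members. The lower edge had moved outward by a median of 37.0 bp at 2 h and 34.0 bp at 12 h, and the upper edge by 37.0 bp at both times. Within a member, the edge that moved less had a median outward shift of 11 bp at 2 h and 8 bp at 12 h, and the edge that moved more had 103 and 106 bp. The smaller and the larger shift were picked within each member, so a gap between them is built in and does not show widening at 1 edge. The centre had moved by a median of 41.0 and 41.5 bp. In the widened regions, which the rule chose for their 12 h width, the 12 h edges lay 213 and 228 bp outward.

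The ratios of the members are given by vehicle score and by vehicle width as a description. Vehicle bp is the denominator of the ratios and was used by the rule, so a ratio that falls with vehicle width follows in part from how it was formed, and wider vehicle regions also had higher scores. The vehicle list carries a peak score up to 1000, whose scale is not stated. Members that scored 540 to 699 had a median 2 h ratio of 1.32 and those that scored 1000 had 1.17. By vehicle width, the median 2 h ratio was 1.38 in members of 150 to 299 bp, 1.26 at 450 to 599 bp and 1.05 from 900 bp upwards. The rule retained 744 of 1398 shared distal regions of 150 to 299 bp (53.2%) and 997 of 1201 regions of 600 to 899 bp (83.0%). The share of shared distal regions that were members ranged from 68.5% on chromosome 4 to 77.2% on the X chromosome (mean 71.8% ± 2.25, SD over 20 chromosomes), and the median 2 h ratio from 1.18 to 1.29.

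Of the 5 widest members, 4 had both ratios between 0.957 and 1.09, and the Fam116b member had 0.856 at 2 h and 0.822 at 12 h. The Ccdc9 member was also narrower than in vehicle at both times. The member with the most vehicle bp, chr15:13296232-13298926, was intergenic and 192838 bp from the 5′ end of Cdh6, the gene of a cadherin. It covered 2645 bp in vehicle, 2695 at 2 h and 2606 at 12 h, and was also the widest of the 64 members with both ratios near 1. Next came intergenic members near Ccdc9 (2483, 2446 and 2377 bp), Gm10384 (2416, 2575 and 2502 bp), Fam116b (2374, 2031 and 1952 bp) and S100a3 (2365, 2383 and 2572 bp). Each of these 5 consisted of 2 or 3 merged intervals per list, with the gaps between them counted. Among those near 1, the following were near Nedd4, a ubiquitin ligase gene (1837, 1828 and 1858 bp), Dlg1, a cell polarity gene (1767, 1791 and 1781 bp), Apbb1ip (1712, 1712 and 1701 bp) and Glrp1 (1547, 1566 and 1520 bp).

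Members at the extremes of the 2 h ratio were chosen for that ratio, and the rule held their 12 h width at 0.8 to under 2 times the vehicle width in advance. Among members of at least 400 vehicle bp, the 2 h ratio was highest in a member over an exon of Zfand3, at 4.21, with 557 bp in vehicle, 2347 at 2 h and 530 at 12 h. It was followed by members in Ap2a2 (407, 1661 and 523 bp), near Zcchc2 (412, 1578 and 472 bp), near Vstm2b (585, 2236 and 785 bp) and in an intron of Bre (511, 1923 and 803 bp). All 5 held 2 intervals at 2 h and 1 at 12 h, so their 2 h bp include the gap between the 2 h intervals. In vehicle the Zfand3 member held 2 and the other 4 held 1. The lowest 2 h ratios belonged to a member near Gm11127 (1139, 401 and 1806 bp) and to one in an intron of Fosb, the gene of an AP-1 subunit. The Gm11127 member held 2 intervals in vehicle, 1 at 2 h and 2 at 12 h. Its vehicle and 12 h bp thus include a gap, and its 2 h bp do not. The Fosb member, chr7:19892872-19894247, covered 907 bp in vehicle, 350 at 2 h and 1376 at 12 h. Members near Dnajb1, a heat shock gene (505, 196 and 586 bp), near Olfr1419 (429, 167 and 370 bp) and in Rasa3 (534, 243 and 635 bp) followed.

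The limits of the rule fell within a continuous range of ratios. Just inside the lower limit were a member in Nr1h4 (305 bp in vehicle and 244 bp at 12 h, ratio 0.8) and a member in Ccdc3 (461 and 369 bp, 0.8004). Regions in Myo10 (554 and 443 bp, 0.7996) and Maml3 (713 and 570 bp, 0.7994) lay just outside. At the upper limit, a member 64044 bp from Epcam (450 and 899 bp, 1.998) and one near Gm9897 (259 and 517 bp, 1.996) were inside. Regions in Mylk4 (437 and 874 bp) and near Ankrd55 (200 and 400 bp), at exactly 2, were outside.

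The surroundings of genes linked to TGFβ and to the epithelial state were described with 11 gene lists. For each list, the members within 100 kb of the 5′ end of a listed gene were counted as a share of the shared distal regions there, for which the share over all shared distal regions was 71.7%. Each list held few regions, and its interval is wide. The share was 60.7% for TGFβ feedback and target genes (17 of 28, 95% interval 42.4% to 76.4%), 66.7% for ligands, receptors and SMADs (18 of 27) and 57.1% for the factors of the epithelial-mesenchymal transition (EMT, 4 of 7). It was 9 of 15 for Hippo and TEAD genes and 70.8% for AP-1 genes (17 of 24). On the epithelial side it was 76.9% for junction genes (20 of 26), 87.5% for regulators (14 of 16, 64.0% to 96.5%) and 92.9% for keratins (13 of 14, 68.5% to 98.7%). Mesenchymal and matrix genes had 81.8% (9 of 11), actin genes 78.9% (15 of 19) and cell cycle arrest genes 80.0% (8 of 10). The intervals of all lists included 71.7%, so none was shown to differ from the shared distal regions in general.

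The member nearest to a gene of each list was named by rule, and the further genes below were chosen after their values were seen. Of the feedback genes, Pmepa1, whose product restrains SMAD signalling, had its nearest member 4526 bp from its 5′ end at chr2:173106560-173107526. It covered 443 bp in vehicle, 835 bp at 2 h and, at 12 h, 667 bp. The single member within 100 kb of Ctgf, a matricellular target gene, had ratios of 1.79 at both times. Among receptor genes, Acvr1, a type I receptor, had an intronic member of 562, 816 and 769 bp, and Tgfbr2, the type II receptor of TGFβ, had 3 members with 2 h ratios of 0.877 to 1.40. Smad3 had 4 members, all wider at 2 h than in vehicle, as were 85.8% of all members, with 2 h ratios of 1.29 to 1.86. No member lay within 100 kb of Tgfb3.

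The EMT factors and AP-1 genes had few members each. Twist2, a helix-loop-helix factor, had an intronic member of 545 bp in vehicle, 489 at 2 h and 644 at 12 h. Snai1, a zinc-finger repressor of Cdh1, had 1 member with ratios of 1.11 and 1.22, while Snai2, Zeb2 and Twist1 had none. The 4 members near Fosb ranged from 0.386 to 1.69 at 2 h. The single member near Jun had a ratio of 1.95 at 2 h and 1.00 at 12 h, and that near Fos had 1.24 and 1.17.

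The 20 members near epithelial junction genes had a median 2 h ratio of 1.45, the highest of the 11 lists, against 1.24 over all members. The 9 members near Hippo and TEAD genes came next with 1.44. Of the 20, 18 were wider at 2 h than in vehicle, where 85.8% of all members and 86.5% of shared distal regions were. The 14 near epithelial regulators had a median of 1.16 and the 13 near keratins 1.17. A member in an intron of Pkp2, which encodes a desmosome plaque protein, covered 501 bp in vehicle, 529 bp at 2 h and, at 12 h, 502 bp. The member nearest to Esrp2, an epithelial splicing regulator, was 345, 450 and 327 bp and held a CTCF match. Krt8 and Krt18, neighbouring genes of a keratin pair, shared 8 members, without a widened or narrowed region, with 12 h ratios of 0.978 to 1.38. The one nearest to Krt18 lay 2089 bp away at chr15:101855713-101856558 and covered 594, 650 and 799 bp. Cdh1 had 5 members, with 12 h ratios of 1.04 to 1.85 and 2 h ratios of 1.35 to 7.75, the last being the highest 2 h ratio of all members. That member had under 400 vehicle bp, a small denominator, and the highest ratio among members of at least 400 was 4.21. Ehf, an ETS factor of epithelia, had 4 members with 12 h ratios of 0.805 to 1.38.

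In the other lists, Cnn1, which encodes the actin-binding protein calponin, had a member of 305 bp in vehicle, 510 at 2 h and 579 at 12 h. A member 7617 bp from Cdkn1b, which encodes the cell cycle inhibitor p27, covered 942, 1138 and 1200 bp. The Axl member, in an intron of this receptor kinase gene, covered 1115, 1164 and 1081 bp and held 2 AP-1 matches. Near Actg1, which encodes γ-actin, the nearest member covered 645, 716 and 611 bp. Of the 14 mesenchymal and matrix genes, 6 had members. Col1a1, a collagen gene, had 3, with 12 h ratios of 1.12 to 1.97, and the single members near Acta2, Sparc and Tnc had 12 h ratios of 1.17, 1.12 and 1.17. Vim, Cdh2 and Fn1 were among the 8 without a member.

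**Figure D2:**
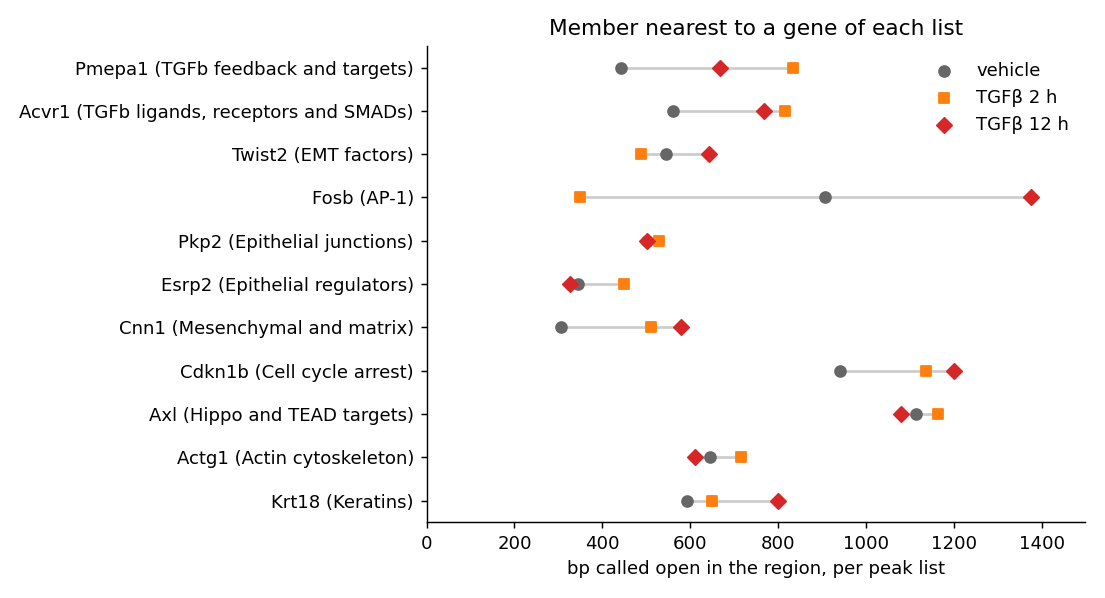
Bp covered, with gaps between merged intervals counted, in the member nearest to a gene of each of the 11 lists. Values are for vehicle (circle), 2 h (square) and 12 h (diamond), with a line from the lowest to the highest. The Fosb member fell to 350 bp at 2 h and had 1376 bp at 12 h, while the Pkp2 member stayed between 501 and 529 bp.

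Counted by the nearest coding start site, the members were spread over 3203 genes, of which 2295 had 1 member and 41 had 5 or more. The genes with the most were Arid1b, which encodes a subunit of the BAF chromatin remodelling complex, with 9 members among 9 shared distal regions, and Sox9, a transcription factor gene of mammary progenitor cells, with 8 of 9. St3gal1, a sialyltransferase gene, had 8 of 11, and Abcc4 and Vav3 had 7 of 7 each. These genes were chosen for their counts. The 2 h ratios ranged from 0.922 to 1.84 near Arid1b and from 0.994 to 1.90 near Sox9. The members near Sox9 all lay outside the gene, and 6 of the 9 near Arid1b lay inside it.

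In the annotation, 55.5% of the members were intergenic (95% interval 54.1% to 57.0%), 38.6% lay in introns of coding genes and 5.82% overlapped an exon. The same shares in all distal regions were 55.0%, 39.8% and 5.12%. The median distance from the nearest start site was 16407 bp (quartiles 6662 and 38932 bp) for members, 18001 bp for widened regions and 19651 bp for the distal regions called only after TGFβ. Of the members, 25.6% had another member within 20 kb, 25.6% had a start-site region shared by all lists and 34.7% had a distal region called only after TGFβ. The last share was 35.7% for widened regions, inside the interval of the members' (33.3% to 36.1%). For a member and for a start-site region within 20 kb, the shares were 21.8% and 22.7% in widened regions. In narrowed regions they were 29.2% and 27.9%, so the members lay between these classes.

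The sequence, which the rule did not use, was read in a window of 500 bp at the centre of each union region and compared with windows 5 kb to either side that overlapped no union region. Motifs were matched exactly on both strands, and a match is not evidence of binding. The AP-1 letters TGACTCA were found in 2309 members (50.6%, 95% interval 49.1% to 52.0%), against 7.81% of flanking windows and 46.0% of all distal regions. CTCF, searched with a degenerate core, matched 186 members (4.07%, 3.54% to 4.69%), against 0.363% of flanks and 5.03% of all distal regions. RUNX (TGTGGTT) was found in 19.0% against 12.5% of flanks, AP-2 (GCCNNNGGC) in 18.2% against 9.52%, and forkhead (TGTTTAC) in 12.6% against 6.67%. Among all 27986 distal regions, RUNX matched 5051, while AP-2 and forkhead matched 13.6% and 10.6%.

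Further motifs were less frequent or close to the flanks. TEAD letters (CATTCCA) were found in 11.7% of members, 7.80% of flanks and 11.7% of all distal regions, and ETS letters (CCGGAAG) in 4.58%, 1.76% and 2.81%. The E-box CACCTG, bound by ZEB and SNAI proteins among others, was found in 31.6% of members and 32.1% of flanks, and in 30.0% of all distal regions. The SMAD palindrome GTCTAGAC was found in 34 members (0.744%, 0.533% to 1.04%), in 0.457% of flanks and in 1.00% of all distal regions. Grainyhead letters (AACCGGTT) were found in 13 members (0.285%), 0.117% of flanks and 0.168% of all distal regions. KLF letters (CCACACCC) matched 6.48% of members and CRE letters (TGACGTCA) 1.07%, against 3.91% and 0.339% of flanks and 5.59% and 0.715% of all distal regions. NFI, C/EBP and HNF1 letters each matched 11 or fewer members. No motif searched was found in 639 members (14.0%).

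**Figure D3:**
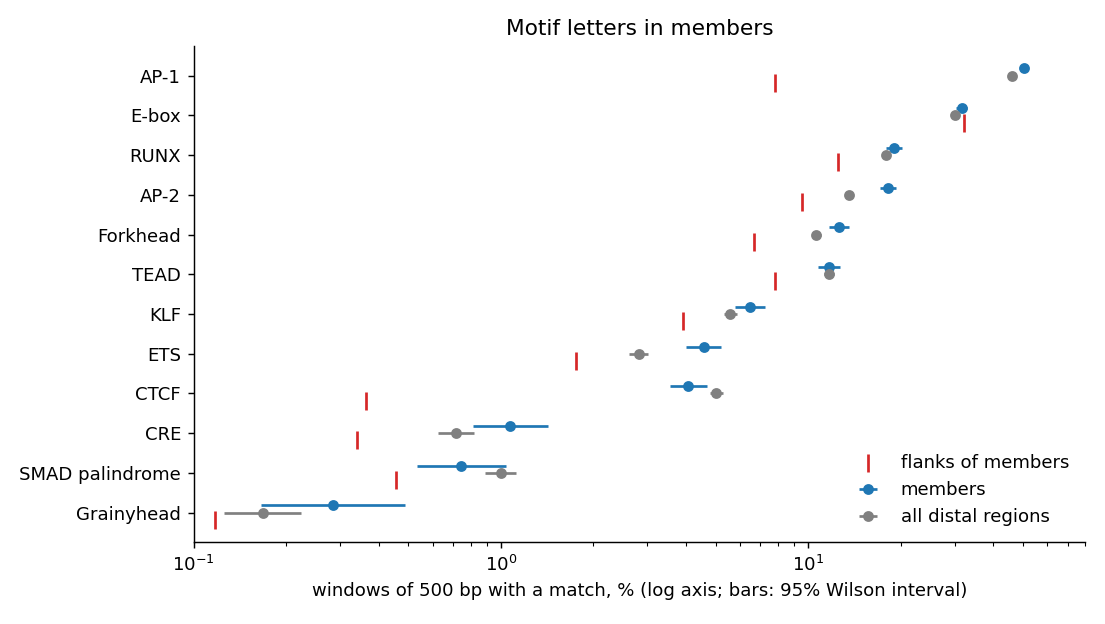
Share of windows of 500 bp with a match to each motif, on a log axis, in members (blue) and all distal regions (grey), with 95% Wilson intervals, and in the flanks of members (red tick). AP-1 stood at 50.6% in members and 7.81% in flanks, while the E-box stood at 31.6% and 32.1%.

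AP-1 matches gathered towards the middle of the members. Of 3030 matches, 32.3% lay within 50 bp of the centre, against 22.7% of 697 matches in flanks, with a median distance of 79.5 bp against 116 bp. For CTCF, 34.8% of 187 matches and 9.68% of 31 flank matches did so. RUNX had 28.0% in members and 19.1% in flanks, while TEAD had 23.1% and 21.9% and the E-box 19.5% and 21.1%. In 621 members the AP-1 letters occurred more than once. AP-1 and CTCF matches were together in 40 members, and 2112 members (46.2%) had neither.

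**Figure D4:**
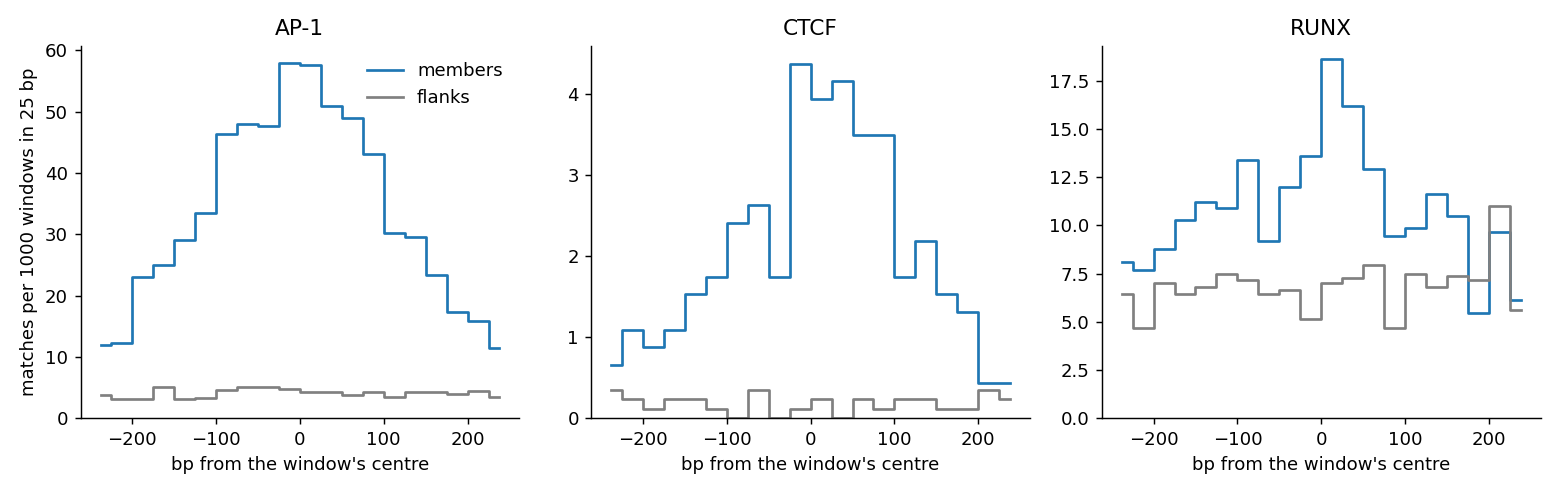
Matches per 1000 windows in steps of 25 bp along the 500 bp window, in members (blue) and their flanks (grey), for AP-1, CTCF and RUNX, each with its own axis from 0. The AP-1 matches of members formed a hump around the centre, with 32.3% of them within 50 bp of it.

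Members with a CTCF match were narrower than the others in the median. The 186 members with a CTCF match covered a median of 310 bp in vehicle, 386 at 2 h and 400 at 12 h, against 489, 653 and 634 bp in the others. Of these, 64.5% were intergenic, the median distance from a start site was 9707 bp, and 19.9% had the vehicle score of 1000, against 55.1%, 16886 bp and 43.0% in the others. By vehicle width, CTCF matched 12.1% of members of 150 to 299 bp (95% interval 9.95% to 14.6%), 4.17% at 300 to 449 bp, 2.10% at 450 to 599 bp and 1.30% at 600 to 899 bp. The order was the same, 12.2%, 4.26%, 2.28% and 1.30%, with windows centred on the widest vehicle region. In widened regions CTCF was also most frequent in the narrowest range, with 5.42%, 0.412%, 0.532% and 0% for union-centred windows. AP-1 matches were most frequent at middle widths. They were found in 42.6% of members of 150 to 299 bp, 57.2% at 450 to 599 bp (54.3% to 60.1%) and 31.5% from 900 bp upwards (27.5% to 35.9%). In widened regions the AP-1 shares there were 48.0%, 28.7% and 6.25% with union-centred windows, and 52.0%, 58.0% and 43.8% with vehicle-centred ones. The last range held 16 widened regions.

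A small set of members was rich in CpG. In 287 members (6.28%, 95% interval 5.62% to 7.03%) the window had a GC content of at least 50% and a ratio of observed to expected CpG of at least 0.6, against 1.97% of all distal regions and 3.04% of widened regions (2.26% to 4.07%). They covered a median of 658 bp in vehicle, 792 at 2 h and 809 at 12 h, against 477, 637 and 617 bp in the other members. Their median 2 h ratio was 1.13 against 1.25, and their median distance from a start site 8214 bp against 17279 bp. All members of 600 to 899 vehicle bp also had a median 2 h ratio of 1.13. The part of vehicle width in the lower ratio was not tested. Only 10.1% held AP-1 letters, against 53.3% of the other members, while 19.2% held ETS letters, against 3.60%. The ETS letters contain a CpG themselves, so their share moves with CpG content. CTCF shares were 3.83% and 4.09%. The median GC content of all members was 48.6% (95% interval 48.4% to 48.8%), against 45.0% in flanks, 47.0% in widened regions and 46.2% in the distal regions called only after TGFβ.

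The AP-1 share differed along the 2 h ratio, and at high ratios it depended on the window. With the window at the centre of the widest vehicle region, which does not move when a peak is joined at 1 side, AP-1 was found in 39.5% of members with a 2 h ratio under 0.8, 43.2% from 0.8 to under 1, 48.7% from 1 to under 1.25, and 57.9% from 1.25 to under 1.5. The shares at higher ratios were 57.3% from 1.5 to under 2 (95% interval 54.0% to 60.5%), 56.2% from 2 to under 3 and 47.6% of the 63 members at 3 or more. With the window at the centre of the union region, the share was 38.6%, 43.0%, 48.2% and 58.3% in the ranges up to 1.5, and then 55.3%, 49.0% and 19.0%. The share was thus higher from 1.25 to under 1.5 than below 1 with either window, and did not rise further. Along the 12 h ratio, the share was 43.1% in members from 0.8 to under 1 and 59.4% from 1.5 to under 2 (56.6% to 62.2%). It was 39.2% in narrowed regions and 57.3% in widened regions. Vehicle width, which varied with the ratio and with the AP-1 share, moved along, and its part was not tested. CTCF shares, with vehicle-centred windows, were 3.32%, 4.96%, 3.59% and 3.64% in the successive 12 h ranges of the members. Along the 2 h ratio they were 7.89% under 0.8 (95% interval 4.21% to 14.3%) and then 4.10%, 4.58%, 3.28%, 3.71%, 3.47% and 3.17%.

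**Figure D5:**
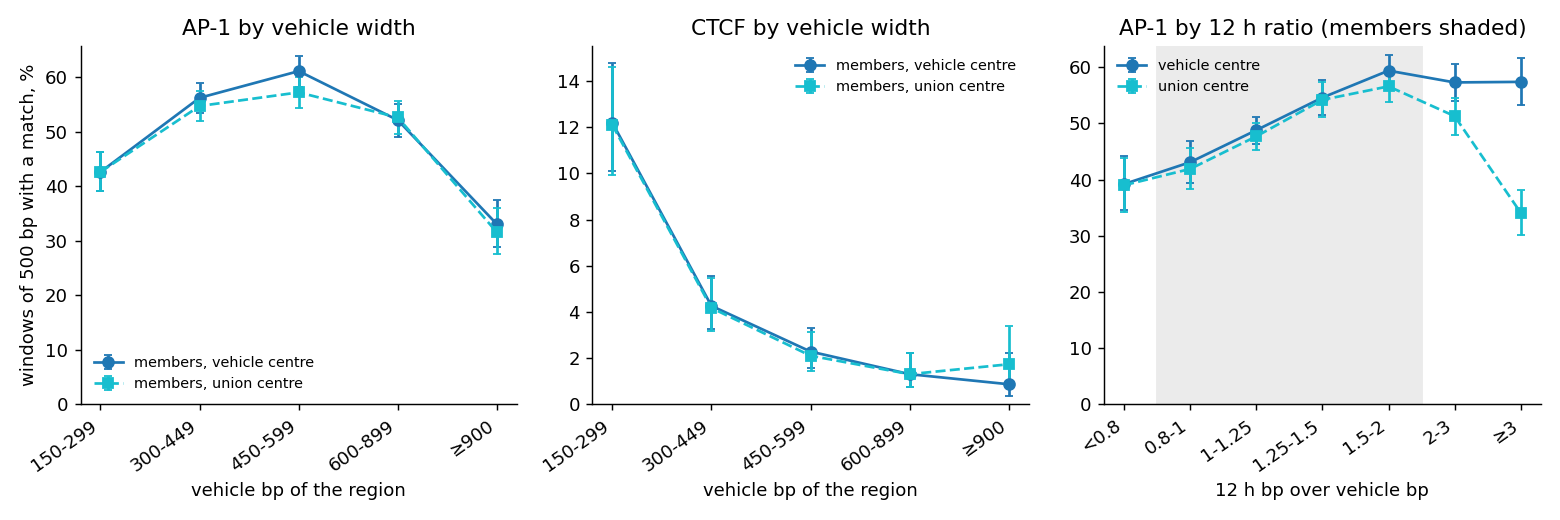
Share of windows of 500 bp with an AP-1 match (left) or CTCF match (middle) in members by vehicle bp, and with an AP-1 match in shared distal regions by the ratio of 12 h to vehicle bp (right, members shaded), with 95% Wilson intervals, for windows centred on the widest vehicle region (solid) or on the union region (dashed). CTCF fell from 12.1% in the narrowest members, and the lines for AP-1 part at ratios of 2 or more.

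How members compared with widened regions depended on where the window was placed. Centred on the union region, AP-1 was found in 50.6% of members and 44.8% of widened regions, a difference of 5.71 points (95% Newcombe interval 2.74 to 8.67, members higher on 17 of 19 chromosomes with at least 20 regions of each). Centred on the widest vehicle region, it was found in 52.0% and 57.3%, a difference of -5.38 points (-8.32 to -2.42, members higher on 5 of 19). The 2 centres lay a median of 44.0 bp apart in members and 170 bp apart in widened regions, and over 250 bp apart in 4.23% and 37.0%. No direction of the AP-1 difference is therefore stated. The CTCF difference was 1.39 points (0.274 to 2.34) with the union centre and 0.189 points (-1.07 to 1.27) with the vehicle centre. Within 5 bins of vehicle width it was 2.92 and 1.93 points, the latter an alternative chosen after seeing the data. Members were higher in every bin with the union centre, and with the vehicle centre in all but 1, where the difference was -1.26 points. Forkhead letters were more frequent in members with either window, by 4.00 points (2.17 to 5.67) and 2.63 points (0.692 to 4.42, members higher on 13 of 19 chromosomes). Of the motifs searched, only forkhead had intervals above 0 with both windows, and it is named for that. The part of width and GC in it was not tested. Forkhead letters were not particular to members, with 12.6% in members and 14.4% in narrowed regions (-1.75 points, -5.69 to 1.54).

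Against narrowed regions, members held AP-1 letters more often with either window, by 11.6 points (6.45 to 16.5) and 12.7 points (7.59 to 17.7). They did so on all 9 chromosomes with at least 20 regions of each. Narrowed regions covered a median of 657 bp in vehicle, against 483 bp in members. The AP-1 share varied with vehicle width, and the part of width in this difference was not tested. Against the distal regions called only after TGFβ, AP-1 differed by -1.02 points (-2.78 to 0.739), an interval that includes 0, and CTCF by 0.127 points (-0.545 to 0.842). Members exceeded those regions in AP-2 letters by 5.30 points (4.01 to 6.62, on 20 of 20 chromosomes) and in ETS letters by 2.10 points (1.45 to 2.81, on 17 of 20). For the SMAD palindrome the difference was -0.471 points (-0.790 to -0.116), with 0.744% against 1.22%, and members were lower on 15 of 20 chromosomes. GC content, which was higher in members, moved with the AP-2 and ETS letters, and its part in these differences was not tested.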

How the data were processed

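The authors ran the ENCODE ATAC-seq pipeline on mm9 (NCBIM37), called peaks with MACS2 (2.1.2 in the submitters' processing notes, which also name deepTools) and kept peaks reproducible between both replicates. The deposited lists, 1 per condition, give peak coordinates. The score deposited by the authors in the vehicle list ran from 540 to 1000, without a stated scale. In both TGFβ lists that column numbers the lines and was not used. Read counts and depth were not used.

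Distinct intervals of 150 bp or more were merged across gaps under 1000 bp, within and then over the 3 lists. Gaps joined within a list count in its bp. Start sites were 86879 distinct transcript 5′ ends of GENCODE vM1. Samples were grouped by their titles. Shares have 95% Wilson intervals, differences Newcombe intervals and medians order-statistic intervals. No test was run across conditions. The members and lists were chosen with earlier results of these data known. Regions were named by fixed rules: the widest members, those with both ratios near 1, the extremes of the 2 h ratio, those at the limits of the rule, and the nearest to a gene of each list. Motifs were searched in the genome sequence of NCBIM37. Region building, motif search and intervals were tested on simulated data. Python 3.11.15, numpy 2.4.6, scipy 1.17.1 and matplotlib 3.10.9 were used. Alternatives changed how regions were made, the motif window and the ratio range.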

Additional observations from a re-analysis of the deposited data

How the results depend on the processing

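Of 98 alternative values, 56 lay within the 95% interval of the reported one or, for the number of members, within 1.5 times of it. With vehicle peaks of score 1000 alone there were 1845 members (75.4% of shared distal regions), with a median 2 h ratio of 1.18, AP-1 in 54.3%, CTCF in 1.95% and an AP-1 difference from widened regions of 16.5 points. With the wider intervals of each list alone (those over its median width) there were 1765 members (90.7%), with 1.13, 52.2%, 1.64%, 24.6 points (76 widened regions) and 57.4% intergenic. Merging at 500 bp gave 74.1% and 1.94 points, and at 2000 bp 68.1%, AP-1 in 48.9% and 10.8 points. A reciprocal overlap of 50%, which bounds the ratio by construction and left 4 widened regions, gave 93.8%, 1.16 points and a CTCF difference of 4.10 points. Other ratio ranges gave 3387 members (53.1%) and 3587 (56.3%). AP-1 was in 49.0% without a minimum width and with coding start sites alone. Windows of 100 bp to either side gave AP-1 33.7%, CTCF 2.56% and 9.66 points, and whole regions 57.9% and 5.06%. A CTCF core with N gave 7.07%. Intergenic shares were 58.2% with a margin of 5000 bp and 52.9% with genes of all biotypes.

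The AP-1 difference from widened regions reversed to -12.0 points over whole regions, -5.38 with vehicle-centred windows and -4.54 with those windows within 5 bins of vehicle width, the last an alternative chosen after seeing the data. With union-centred windows it was 16.6 within width bins and 16.2 within bins of width and GC. The CTCF difference was 0.185, 0.189, 2.92 and 2.95 points over whole regions, with vehicle-centred windows, within width bins, and within bins of width and GC. The cause of these changes was not tested. No paired analysis was possible because each list combines both replicates, and for the same reason no replicate could be left out. Without depth, how far widths follow library size was not tested.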
